A study of Saccharomyces cerevisiae with 12 samples.

Results

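RAP1 encodes a DNA-binding protein of budding yeast (Saccharomyces cerevisiae), and RIF1, RIF2, SIR1, SIR2, SIR3 and SIR4 encode proteins that work with it at telomeres and at silenced loci. These 7 genes were taken by name out of 5656 genes that have a probe set of their own on the array, for their known ties to Rap1. They are read by 8 of the 9275 non-control probe sets, since SIR1 has 2 and each of the other genes has 1. For each gene the brightest probe set over all arrays stands for the gene.

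Rap1 binds telomeric repeat DNA, the silencers beside the silent mating-type loci, and the promoters of many ribosomal protein and glycolytic genes. Through its C-terminal part it recruits Rif1 and Rif2, which limit the lengthening of telomeres by telomerase, and Sir3 and Sir4, which compete with the Rif proteins there. At silencers Sir1 is held by the origin recognition complex and helps to bring in Sir4. Sir2, an NAD-dependent histone deacetylase, then acts with Sir3 and Sir4 to spread silent chromatin along the nucleosomes.

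Total RNA was measured on 12 arrays in 4 groups of 3. These were yeast with a temperature-sensitive (ts) rap1 allele, the wild type matched to them, yeast with a ts abf1 allele, and the wild type matched to those. Abf1 is another DNA-binding factor that, like Rap1, sits at silencers and at many promoters. All 4 groups grew at 25 C and were then kept at 37 C for 1 h, a temperature at which both ts proteins stop binding DNA per the series' design text. The labels name YPD, a rich glucose medium, for all groups but the abf1 wild type, for which no medium is named. The sources used here do not give allele names, strain backgrounds or the cultures behind the replicates. The p-values therefore describe only how these arrays spread, which may be technical.

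Trimmed of extreme values, the arrays had mean signals between 1499.7 and 1501.4. Every signal is therefore relative to a common scale, and a change in total RNA per cell cannot be told apart from none. Array medians ran from 390.4 to 598.3. STE2, a receptor gene of a-type cells, had signals of 1011 to 3304 over the 12 arrays. STE3, its counterpart in alpha cells, had signals of 34 to 180.4, under the filter used below. Not every alpha-cell gene read as low: SAG1 had signals of 107.7 to 473.5, and AFB1 had group means of 614 to 2439. The ratio of 3′ to 5′ signal of ACT1, a measure of RNA and labelling quality, had a geometric mean of 30.1 in rap1 ts (20.1 to 48.4) and of 6.75 in its wild type (2.56 to 18.2), with no overlap. It was 7.93 in abf1 ts and 12.02 in its wild type. The part of this ratio in the differences between rap1 ts and its wild type was not tested.

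A feature (a gene, or a set of genes that share a probe set, read by its brightest probe set) entered the main test when its mean log2 signal was at least 8.16, which left 4687 of 5859 features. RAP1, RIF1, SIR2 and SIR3 passed this filter, and RIF1 was the dimmest of them at 8.96. SIR4, SIR1 and RIF2 did not pass, with mean log2 values of 8.01, 7.93 and 5.74, and their tests come from the same fit run on all 5859 features. A feature was called at a limma adjusted p under 0.05.

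**Figure D1:**
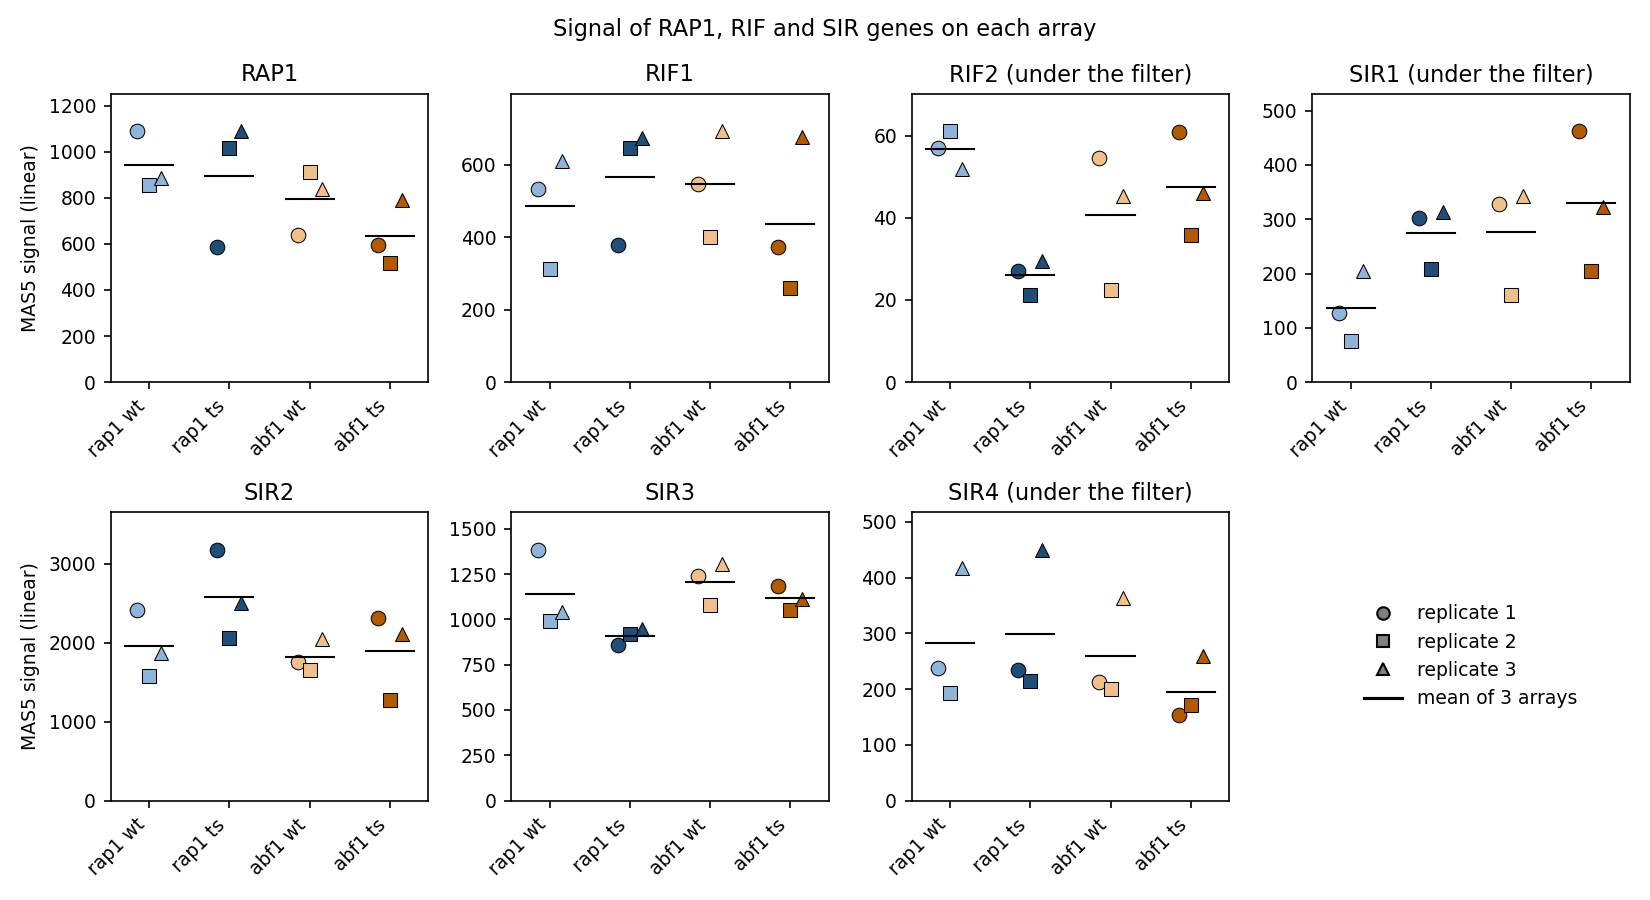
MAS5 signal (linear axis from 0) of the 7 genes on the 12 arrays, by group, with a symbol for each replicate number and a line at the mean of 3 arrays. The 3 rap1 ts arrays lie below their 3 wild-type arrays for RIF2 and SIR3 and above them for SIR1, while RAP1, RIF1, SIR2 and SIR4 overlap.

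Loss of DNA binding by Rap1 was compared with the matched wild type first. Of the 4 brighter genes, 0 were called in rap1 ts against its wild type by limma, and 0 had an unadjusted p under 0.05. SIR2 signal was 0.40 higher and SIR3 signal 0.31 lower on the log2 scale, both with 95% intervals that include 0. Of the dim genes, SIR4 differed by 0.08, RIF2 signal was 1.80-fold lower and SIR1 signal 2.04-fold higher in the mutant on the scale of log2(signal + 12.6). RIF2 and SIR1 passed the threshold only with the replicate number as a block. Over all features tested, 0.405% were called (0.363% lower and 0.0427% higher), and 22.3% had an unadjusted p under 0.05. With the block 25% were called, 10% lower and 15% higher, and the count of brighter members called remained 0.

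RAP1, the gene that carries the ts allele, had signals of 1089.7, 858 and 886 on the wild-type arrays and of 585, 1017 and 1089 on the mutant arrays. The groups overlapped, and the low value in the mutant belonged to array 1. That array also had the highest ratios of 3′ to 5′ signal of the 12 arrays for ACT1 (48.4) and for SPT15 (56.9). It did not for SRB4, at 238 against 580 on rap1 ts array 3 and 701 on abf1 wild-type array 3. The part of these ratios in the low RAP1 value was not tested. The fitted difference was -0.12 on the log2 scale (SE 0.30, 95% interval -0.77 to 0.54, limma adjusted p = 0.842). Its sign rested on that array: without rap1 ts replicate 1 the difference was 0.16. A ts allele alters the protein, so the RAP1 signal does not test the labels of these arrays.

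RIF1 encodes the Rap1-binding protein that limits telomere length and also delays the firing of replication origins. Its signals were 533, 313 and 611.5 in the wild type, against 379, 646 and 675 in the mutant. These groups overlapped, with 1 mutant array below 2 of the wild-type arrays. The difference was 0.23 (SE 0.40, interval -0.65 to 1.10, limma adjusted p = 0.761), and the pairs of equal replicate number gave -0.48, 1.02 and 0.14.

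RIF2 encodes the other Rap1-binding inhibitor of telomere lengthening, and its probe set was the dimmest of the chosen ones. Signals were 56.9, 61.1 and 51.9 in the wild type, against 27.1, 21.3 and 29.6 in the mutant. All 3 mutant arrays lay below all 3 wild-type arrays, as they did for 9.63% of the 5859 features. The difference was -0.85 on the log2 scale (SE 0.30, interval -1.50 to -0.19), and the pairs gave -0.81, -1.12 and -0.61.

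By limma RIF2 had an adjusted p of 0.167 without the block and of 0.0399 with it. In the fits on all features 0.358% were called without the block, and 19.8% with it (8.09% lower and 11.7% higher). The call with the block ended when any 1 replicate number was left out, with adjusted p between 0.124 and 0.160. Calls over all 5859 features also fell in those fits, from 1161 to 306, 692 and 171 without number 1, 2 and 3. The RIF2 signals stood between the 13.1 and 25.4 percentiles of their arrays. Its probe set was not shown to be above background, and no detection calls were used here. The alpha-cell genes STE3 and MF(ALPHA)1 gave signals of 34 to 180.4 and of 82.6 to 205.9 on these arrays. SAG1, another alpha-cell gene, read 107.7 to 473.5, so these genes do not set a background level. The size of the RIF2 difference also rested on the offset added before log2, at -1.10 with an offset of 1 and -0.42 with an offset of 64.

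SIR1 encodes the protein that starts silencing at the silent mating loci. Its brighter probe set gave 128, 75.3 and 205 in the wild type, against 302.5, 208 and 314 in the mutant. The mutant arrays lay above the wild-type arrays, as for 14.5% of all 5859 features, although the lowest mutant value and the highest wild-type value were close. The difference was 1.03 (SE 0.43, interval 0.10 to 1.96), and the pairs gave 1.17, 1.33 and 0.59.

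The limma adjusted p of SIR1 was 0.211 without the block and 0.0240 with it. It ran from 0.0861 to 0.105 with the block when 1 replicate number was left out, where calls over all features fell too, as given above. The wild-type SIR1 signals lay in the range of STE3 and MF(ALPHA)1, and the mutant signals lay above it. The lowest mutant signal (208.3) was close to the highest of MF(ALPHA)1 (205.9). All mutant signals lay within the range of SAG1 (107.7 to 473.5), so these alpha-cell genes set no background level here either. The fold of SIR1 rests on dim wild-type values that were not shown to be above background. The probe sets of SIR1 disagreed. The dimmer one had group means of 55.8 ± 21.7 in the wild type, against 50.03 ± 17.1 in the mutant (SD, n = 3), a difference of -0.12 (SE 0.36, limma adjusted p = 0.896). With the log2 values of both probe sets averaged, the SIR1 difference was 0.46 (limma adjusted p = 0.467).

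SIR2, the histone deacetylase of the silencing complex, had signals of 2415.5, 1575 and 1874 on the wild-type arrays and of 3177, 2055 and 2502 on those of rap1 ts. Each mutant array was above the wild-type array of its number, but the groups overlapped. The pairs gave 0.39, 0.38 and 0.41, and 32.9% of all features tested were likewise higher in 3 of 3 pairs. The difference was 0.40 (SE 0.28, interval -0.22 to 1.01), with a limma adjusted p of 0.411 without the block and 0.154 with it.

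SIR3 encodes the nucleosome-binding member of the complex. Its signals were 1385, 992 and 1043 in the wild type, against 856, 920.3 and 948 in the mutant. The groups did not overlap, as for 10.5% of all features in that direction and 26.5% in either, and 1 of the 4 brighter genes showed this. All 3 pairs were lower (-0.69, -0.11 and -0.14), as for 21.3% of all features.

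The SIR3 difference was -0.31 (SE 0.23, interval -0.81 to 0.19, limma adjusted p = 0.434). Signals in the abf1 series were 1242, 1079 and 1305 in the wild type and 1183, 1052 and 1113 in abf1 ts, so the 3 rap1 ts arrays were the lowest of all 12. That order was looked for after the values were seen, and 2.97% of all features tested showed it. SIR3 also varied little between replicate arrays: its SD within groups was 0.16 on the log2 scale, at the 1.75 percentile of all features, whose median was 0.41.

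SIR4 encodes the scaffold that links Sir2 to Sir3 and to Rap1. Its signals were 238, 193 and 416.5 in the wild type, against 234, 215 and 450.3 in the mutant. The values followed the replicate number more than the genotype, with array 3 the highest in both groups. The difference was 0.08 (SE 0.40, interval -0.79 to 0.95, limma adjusted p = 0.936).

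**Figure D2:**
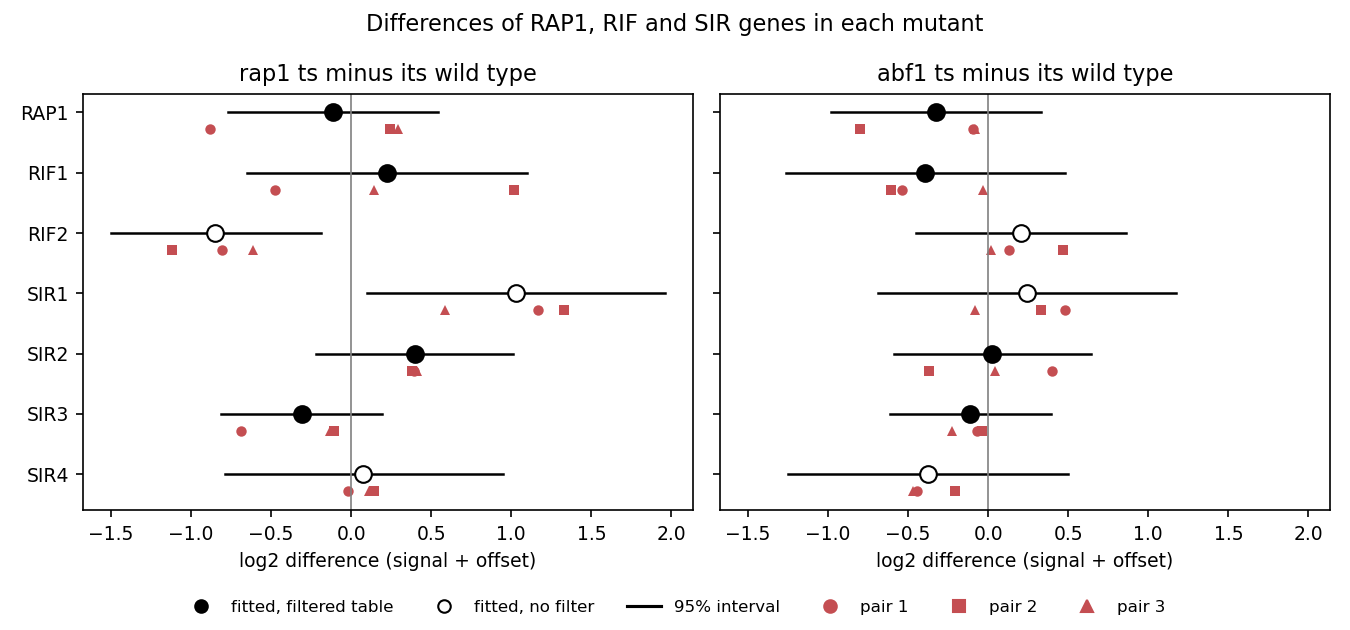
Log2 difference (horizontal axis) of each of the 7 genes between each mutant and its wild type, with 95% intervals as lines, filled circles for the filtered fit, open circles for the fit on all features, and small symbols for the 3 pairs of equal replicate number. The intervals of RIF2 and SIR1 in rap1 ts leave out 0, and the other 12 include it.

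Loss of DNA binding by Abf1 was compared with its own wild type in the same way. Of the 4 brighter genes, 0 were called in abf1 ts by limma (0.0427% of all features were), and 0 had an unadjusted p under 0.05 (3.09% of all features). With the block the member count was again 0, against 0.213% of all features. RAP1, RIF1 and SIR3 were lower in 3 of 3 pairs, as were 21.2% of all features, and 0 of the 4 had groups that did not overlap, against 7.62%.

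RAP1 signals were 639.9, 911 and 839 in the abf1 wild type and 597, 517 and 790.3 in abf1 ts. The groups overlapped, and array 2 of the mutant was the lowest of all 12. The difference was -0.33 (SE 0.30, interval -0.98 to 0.33, limma adjusted p = 1.00), and the pair of replicate 2 gave -0.80 while the other pairs gave -0.097 and -0.085.

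RIF1 signals were 546, 399.6 and 693 in the wild type and 372, 259 and 677 in abf1 ts, with the order of the arrays alike in both groups. The RIF1 difference was -0.39 (SE 0.40, interval -1.26 to 0.48). RIF2 signals were 54.5, 22.5 and 45.4 in the wild type and 60.8, 35.9 and 46 in abf1 ts, a difference of 0.20 (SE 0.30, interval -0.45 to 0.86).

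These groups overlapped for both Rif genes. The 4 silencing genes also overlapped between abf1 ts and its wild type. SIR1 signals were 328, 161 and 342 in the wild type and 462, 205 and 323 in abf1 ts, a difference of 0.24 (interval -0.69 to 1.17). SIR2 signals were 1754, 1649 and 2047 in the wild type and 2314, 1271.5 and 2109.6 in abf1 ts, a difference of 0.02 (interval -0.59 to 0.64). The SIR2 pairs went both ways, at 0.40, -0.37 and 0.04.

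SIR3 differed by -0.11 (interval -0.61 to 0.39) between abf1 ts and its wild type, from the signals given above. SIR4 signals were 212, 200.4 and 364 in the wild type and 153, 171.5 and 259 in abf1 ts, a difference of -0.38 (interval -1.25 to 0.50). Its pairs were all lower, at -0.44, -0.21 and -0.47, though the groups overlapped. All 7 genes had a limma adjusted p of 1.00 in abf1 ts without the block. In the fits on all 5859 features 0.0341% were called without it and 0.0853% with it, and RIF2, SIR1 and SIR4 were not among them.

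The test of whether the mutants' effects differ took the rap1 ts effect minus the abf1 ts effect. Of the 4 brighter genes 0 were called by limma, as were 0% of all features, and 0 had an unadjusted p under 0.05 against 12.7% of all features. With the block 0 were called, against 9.09%. The widest gap among the brighter genes was that of RIF1 at 0.62 (interval -0.62 to 1.85, limma adjusted p = 0.628), and that of SIR3 was -0.20 (interval -0.91 to 0.51).

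RIF2, the dim inhibitor of telomere lengthening, had a gap of -1.05 (SE 0.43, interval -1.98 to -0.12). The gap was -1.38 with an offset of 1 and -0.52 with an offset of 64, where it was smaller than those of SIR1 (0.59) and RIF1 (0.55). Its limma adjusted p was 0.410 without the block and 0.0918 with it. In the fits on all features 0% were called without the block and 5.67% with it, so the lower RIF2 signal in rap1 ts was not shown to differ from its signal change in abf1 ts. SIR1 had a gap of 0.79 (interval -0.53 to 2.10), with a limma adjusted p of 0.608 and, with the block, of 0.198.

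The wild types, which are separate control groups, were compared with each other to see how far the genes differ without a mutation. Of the 4 brighter genes 0 were called by limma, against 0% of all features, and 0 had an unadjusted p under 0.05, against 3.33%. With a block over all arrays the count was 0 of 4 and 0% of all features. RAP1 was 0.25 higher in the rap1 wild type (interval -0.41 to 0.90) and RIF1 0.18 lower (interval -1.06 to 0.69). All 4 overlapped between the wild types, where 9.22% of all features did not, and RIF1 was lower in 3 of 3 pairs, as were 25.9% of all features. These pairs and the block over all arrays match replicate numbers across the series, which the pairing check did not cover.

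SIR1 in its brighter probe set was the exception among the dim genes. It was 0.99 lower in the rap1 wild type than in the abf1 wild type (SE 0.43, interval of the difference -1.92 to -0.06), about the size of its difference from rap1 ts. The limma adjusted p was 0.977, and 0.363 with the block over all arrays. The rap1 wild type had a mean SIR1 signal of 136 ± 65.0, against 275 ± 58.1 in rap1 ts, 277 ± 101 in the abf1 wild type and 330.1 ± 129 in abf1 ts (SD, n = 3). The rap1 wild type thus had the lowest mean in this probe set, and the rap1 ts arrays lay within the range of the abf1 wild type. Array 2 of the abf1 wild type, at 161, lay within the rap1 wild-type range. In the dimmer probe set the rap1 wild type was not lowest, at 55.8 against 50.03 in rap1 ts, 58.0 in the abf1 wild type and 61.3 in abf1 ts.

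For RIF2 the group that stood low was rap1 ts itself. Its mean RIF2 signal was 26.0 ± 4.26, against 56.6 ± 4.61 in the rap1 wild type, 40.8 ± 16.5 in the abf1 wild type and 47.6 ± 12.5 in abf1 ts (SD, n = 3). Array 2 of the abf1 wild type, at 22.5, lay within the rap1 ts range.

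The order of the group means differed from gene to gene. RAP1 ran from 635 ± 140.4 in abf1 ts through 797 ± 141 in the abf1 wild type and 897 ± 273 in rap1 ts to 944.5 ± 127 in the rap1 wild type. RIF1 was likewise lowest in abf1 ts (436 ± 216) but highest in rap1 ts (567 ± 163). SIR2 was highest in rap1 ts (2578 ± 565), with the other groups between 1817 and 1955, and SIR3 was lowest in rap1 ts (908 ± 47.2) and highest in the abf1 wild type (1209 ± 117). SIR4 was lowest in abf1 ts (194 ± 56.7) and highest in rap1 ts (299.8 ± 131). For RIF1 and SIR4 every step between neighbouring groups was smaller than the larger SD of the groups it joins. No step that is itself a tested comparison was called for RAP1, RIF1, SIR2 or SIR3, and steps between a mutant and the wild type of the other series were not tested.

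Across the 12 arrays the 4 brighter genes did not follow one another closely. Pearson's r of log2 signals was highest for RAP1 with RIF1, at 0.62, and 119 other features were closer to RAP1 than RIF1 was. SIR2 and SIR3 had an r of -0.15 over all arrays and of 0.56 once group means were taken off. These coefficients describe 12 arrays that share the scaling and the replicate numbers.

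The nearest features to RAP1 by Pearson's r over the 12 arrays were GZF3 (0.84), GAA1 (0.84) and BNA7 (0.81). RIF1 was nearest to PSK2 (0.96), TRZ1 (0.94) and MSS116 (0.93), all of which, like RIF1, had a positive difference in rap1 ts and a negative one in abf1 ts. SIR2 was nearest to ROG1 (0.95), DBP7 (0.94) and UTP14 (0.93), where DBP7 and UTP14 are genes of ribosome assembly. SIR3 was nearest to SNR73 (0.91) and SNR76 (0.88), which encode small nucleolar RNAs, and to WSC2 (0.86), a cell wall sensor gene. Their differences in rap1 ts were -0.81, -0.88 and -0.99. These features were picked on the same 12 arrays, so differences shared with RIF1 or SIR3 largely follow from that choice and are no separate result.

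The wider set of genes around the 7 was read through 11 lists. In every list 0 genes were called by limma without the block in rap1 ts or in abf1 ts. With the block some were called in rap1 ts, where 10% of all features were called lower and 15% higher, and 0 were called in abf1 ts with the deposited scaling. Leaving out replicate number 3 with the block ended every one of those calls in the 10 named lists and gave 2 lower and 0 higher calls among the telomere-proximal genes. Calls over all 4687 features fell as well, from 1171 to 206. Without number 1 or 2 they were 523 and 851, and some list genes were called in each case. The adjusted p of each gene below is that of limma with the block.

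Of the genes around the silencer, 2 of 7 lay below 0 in rap1 ts, against 44.1% of all features, and 5 lay above it. Of the 6 subunits of the origin recognition complex and ABF1, ORC6 (1.45 higher, adjusted p = 0.00711) and ORC1, the paralog of SIR3 (0.76 higher, adjusted p = 0.0320), were called with the block, and 0 were called lower. With quantile scaling and the block, ORC5 was called lower as well. ORC6 signal went from a mean of 278 in the wild type to 769 in the mutant, above it on all 3 arrays. Over all features 26.5% had groups that did not overlap, in either direction. The list had a median difference of 0.33, against 0.09 over all features.

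Among 13 tested chromatin factors of silencing, 4 lay below 0, against 44.1% of all features, and 9 lay above it. Of the 13, 4 were called higher with the block and 0 lower, with a list median of 0.50. They were DOT1, the methyltransferase of histone H3 whose mark keeps Sir3 off (1.48, adjusted p = 0.0112), ESC1, which tethers Sir4 at the nuclear edge (0.85, adjusted p = 0.0421), the histone chaperone gene ASF1 (0.75, adjusted p = 0.0229), and RLF2, a subunit of chromatin assembly factor (0.63, adjusted p = 0.0455). SAS5, a subunit of the acetyltransferase that acts on histone H4, was 0.96 lower (adjusted p = 0.0563) and was not called. With quantile scaling and the block, 2 were called higher (ASF1 and DOT1) and SAS5 was called lower. SAS5 was also called lower with median centring and the block.

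The paralogs of SIR2 were read by 3 tested genes. HST4 was 1.42 higher (adjusted p = 0.00590) and HST1, the closest paralog, 0.70 higher (adjusted p = 0.0164), and both were called with the block. HST1 signal went from a mean of 6404 to 10395. HST4 was dim, with a mean signal of 152 in the rap1 wild type and 424 in rap1 ts. Its means were 311 in the abf1 wild type and 451 in abf1 ts. The filter stands at a signal of 273, so the HST4 fold rests on wild-type values under that level. Those values were not shown to be above background. HST2, which encodes a cytoplasmic deacetylase, was 0.42 lower and not called. SIR2 in turn lay 0.40 higher, as given above, and was not called in any of the alternatives run.

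In the list of end protection and telomerase genes, 11 of 15 were tested. EST3, a telomerase subunit, was 0.76 higher (adjusted p = 0.0256) and TBF1, which binds subtelomeric repeats, 0.98 lower (adjusted p = 0.0362) with the block, and the list median was 0.21. EST3 signal went from a mean of 2059 to 3498 and TBF1 signal from 721 to 372. Neither gene had overlapping groups, as for 26.5% of all features in either direction.

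The list of rDNA silencing, where Sir2 acts with Net1 and Cdc14 and without Sir3 and Sir4, had 6 tested genes and 0 calls. NET1 was 0.59 lower and CDC14 0.57 higher, and the median was 0.064, or -0.011 with quantile scaling. Of the cofactors of Rap1 at promoters, 5 were tested and 0 called. GCR1, the activator of glycolytic genes, was 0.62 lower (adjusted p = 0.0571) and SFP1 was 0.57 lower. Of the 5, 4 were below 0, against 44.1% of all features, with a median of -0.39. With the block, GCR1 was called lower under quantile scaling and under median centring.

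Of the genes of the silent loci and MAT, only HMRA1 had probe sets that name it alone. HMRA1, the a1 gene of the silent HMR locus, was 0.90 higher (adjusted p = 0.0110), from a mean signal of 2560 to 4861. It was above the wild type on all 3 arrays, where 26.5% of all features did not overlap in either direction. Its sequence is also that of the expressed a1 gene at MAT in a-type cells, so the silent and the expressed copy cannot be told apart by this probe set. The other probe sets of HMRA1 had differences of 1.63 and 0.30. The other 5 genes of the silent loci and MAT are held only by probe sets shared between genes, and no values are given for them.

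Genes that mark mating type or the haploid state were read as well. Of 6 tested a-specific genes 3 were called higher with the block, AGA2 (1.02, adjusted p = 0.0109), MFA1 (0.92, adjusted p = 0.0482) and MFA2 (0.76, adjusted p = 0.0307), and the median was 0.51. AGA2 encodes the agglutinin subunit and MFA1 and MFA2 the a-factor precursors. Both tested alpha-specific genes, SAG1 (-0.63) and AFB1 (-0.33), were below 0 and not called. Of 8 tested haploid-specific genes 4 were called higher with the block, STE18 (0.83), HO (0.80), STE5 (0.74) and GPA1 (0.73). With quantile scaling and the block, 1 of those 4 (STE5) was called. With median centring and the block, STE18 was the higher call among the haploid-specific genes and AGA2 among the a-specific genes. HST4 was that of the SIR2 paralogs, and DOT1 and ESC1 those of the chromatin factors. EST3, ORC1, ORC6 and HMRA1 also stayed called higher in their lists, and TBF1 lower.

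In abf1 ts the genes of these lists farthest from 0 were AFB1, an alpha-specific gene, at 1.76 higher (limma adjusted p = 0.343, and 0.120 with the block), and ABF1, the gene that carries the ts allele there, at 1.61 higher (adjusted p = 0.102 with the block). Both were called higher by limma with the block under quantile scaling and under median centring. ABF1 signal had a mean of 1009 in the abf1 wild type and of 3176 in abf1 ts. Its lowest mutant array (1707) lay above the highest wild-type array (1423), and 7.62% of all features did not overlap in either direction.

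The telomere-proximal genes, here the 10 protein-coding genes nearest to each chromosome end, numbered 320, of which 201 were on the array and 108 were tested. With the block 10 were called lower and 10 higher in rap1 ts, which is 20 of 108 against 25% of all features. Their median difference was -0.07 against 0.09 over all features, with 56 below 0 and 52 above. Of all features, 44.1% lay below 0. In abf1 ts the median was 0.13 against -0.03, with 36 of 108 below 0, against 54.4% of all features. There 72 lay above 0, and 0 were called.

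**Figure D3:**
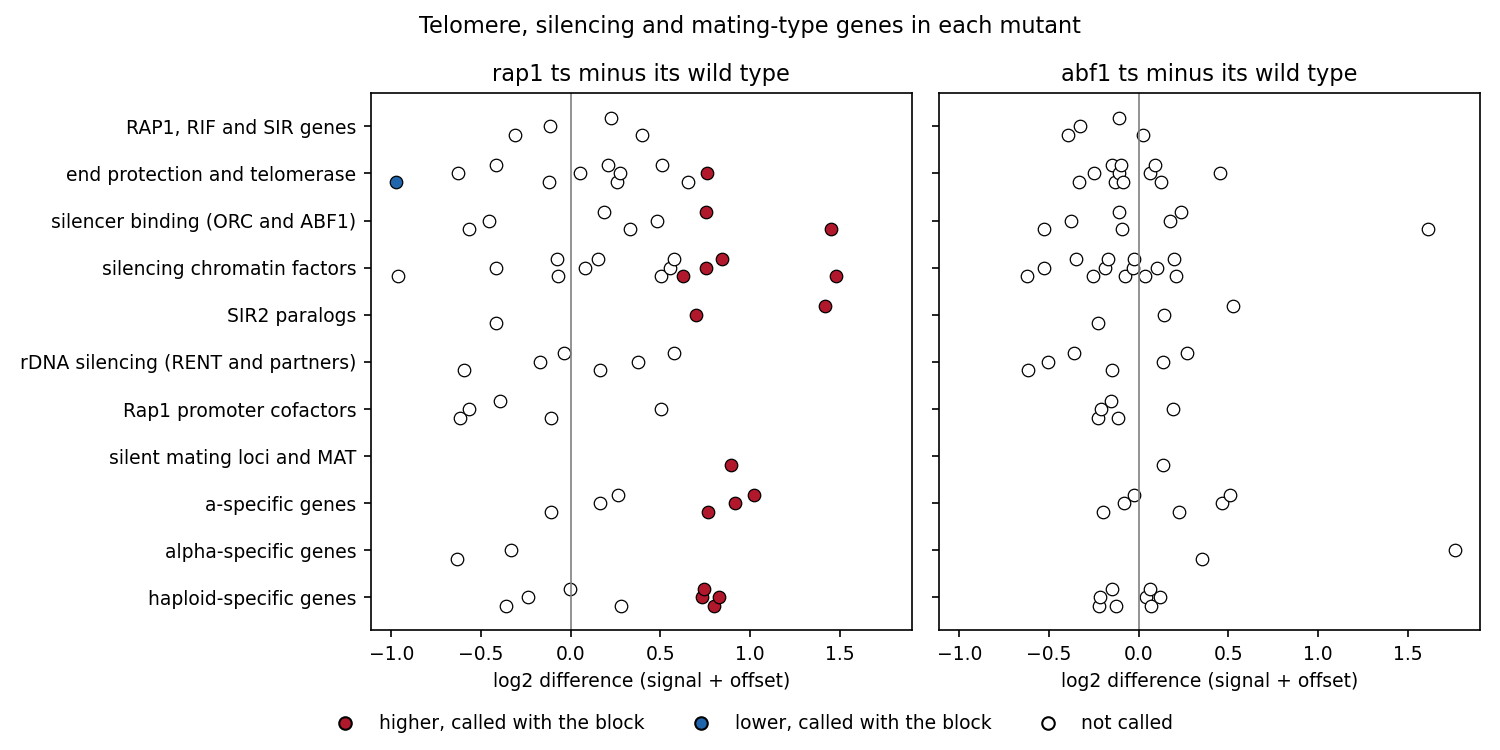
Log2 difference (horizontal axis) in rap1 ts and in abf1 ts for the tested genes of 10 lists and the 4 brighter genes, each circle a gene, filled where limma with the replicate block and the deposited scaling called it. Filled circles appear only in rap1 ts among the genes shown, and 1 of them (TBF1) is lower.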

How the data were processed

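Biotin-labelled total RNA of 12 samples was measured on 1-colour Affymetrix yeast arrays. The deposited table gives 1 linear intensity per probe set and array, which the authors made with MAS5, as the submitters' processing notes name it. The sources used here give no MAS5 version, settings or detection calls. Of 9335 probe sets 60 were controls, 6504 named 1 gene, 328 named several and 2443 were unnamed in the platform annotation. Coordinates and sequences are left out, since the genome build behind the arrays is not stated.

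Signals were taken to log2 after adding 12.6, the 10th percentile of the non-control signals. Each gene kept its brightest probe set, and features under the 20th percentile of mean log2 signal were dropped, except in a fit on all features that serves the dim genes. Group means over all 12 arrays were fitted with limma 3.58.1 (R 4.3.3). The prior variance followed mean intensity, and p-values were adjusted by Benjamini-Hochberg over every feature in the fit. The scripts were tested on simulated data. The number of arrays limits the precision.

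Whether replicate numbers pair the arrays was checked by correlating deviations from group means. Same-numbered arrays had r of 0.25 to 0.58 in the rap1 series and 0.57 to 0.82 in the abf1 series, and all other pairs 0.09 at most. Deviations from a group mean cancel out within the group, so a positive r for same-numbered arrays pushes the other r values down. The low r of the other pairs is therefore no separate support for the pairing. Every same-numbered pair lay above 0.1, so the numbers were taken as pairs. The check was made within each series only. The labels do not state this pairing, and it comes from the data.

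All 7 genes are named. Of each list the genes called are named, up to 4 in each direction by size, and otherwise the 2 with the largest difference in rap1 ts. The 3 features closest to each brighter gene are named by Pearson's r. The genes, the lists and these rules were chosen with earlier results of these data known. The alternatives were other scalings, offsets, filters, probe set rules and variance models, the replicate block, fits on 6 arrays, and leaving out each array.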

Additional observations from a re-analysis of the deposited data

Results flagged for a closer look

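RIF2 in rap1 ts against abf1 ts drew attention because its 3 pairs in the rap1 series were all lower in the mutant (-0.81, -1.12 and -0.61 on the log2 scale) and its 3 pairs in the abf1 series were all higher (0.13, 0.47 and 0.02). Among the 4687 features of the filtered fit, which leaves RIF2 out, 21.3% were lower in 3 of 3 pairs in rap1 ts. The share with both patterns was not counted. The smallest abf1 pair, 0.02, came from signals of 45.4 in the wild type and 46 in abf1 ts. The rap1 ts effect minus the abf1 ts effect was -1.05 in the fit on all features, -1.38 with an offset of 1 and -0.52 with an offset of 64. limma's test of that difference did not pass the threshold, with an adjusted p of 0.410 without the replicate block and 0.0918 with it. The RIF2 probe set is dim on every array, with signals between 21.3 and 61.1, and was not shown to be above background. The ACT1 ratio of 3′ to 5′ signal also differed between rap1 ts (geometric mean 30.1) and its wild type (6.75), and its part in the RIF2 difference was not tested.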

How the results depend on the processing

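RAP1, RIF1, SIR2 and SIR3 gave 412 values under 33 alternative settings, of which 0 were called. RIF2, SIR1 and SIR4 gave 291, of which 5 were called, all in rap1 ts with a replicate block. With the replicate block and no filter on low values, a setting added after seeing the data, 2 members were called, RIF2 lower and SIR1 higher. With quantile scaling as well, limma's adjusted p was 0.0450 for RIF2 and 0.0167 for SIR1, and with a block over all arrays it was 0.0508 and 0.0260. Leaving out 1 replicate number with the block gave RIF2 -0.96 to -0.71 and SIR1 0.88 to 1.25, and ended both calls. Calls over all features fell in those fits too, from 1161 to between 171 and 692.

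Differences that changed sign were small and none was called. The wild-type difference of SIR3 was 0.051 with quantile scaling and 0.020 with median centring. Median centring also gave SIR2 in abf1 ts -0.024 and SIR4 in rap1 ts -0.011. With the block and without replicate number 1, RAP1 in rap1 ts was 0.27, SIR2 in abf1 ts -0.16 and the difference of effects of SIR3 0.011. Without number 2, RIF1 in rap1 ts was -0.17 and the difference of effects of RAP1 -0.20. Leaving out single arrays gave, in rap1 ts, RAP1 -0.28 to 0.16, RIF1 -0.055 to 0.49 and SIR4 -0.25 to 0.38. In abf1 ts it gave SIR2 -0.14 to 0.29, RIF2 -0.073 to 0.39 and SIR1 -0.092 to 0.53. Between the wild types it gave RIF1 -0.39 to 0.10, SIR2 -0.074 to 0.23 and SIR4 -0.21 to 0.36. The cause of these changes was not tested.

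Over all features, calls in rap1 ts went from 19 to 30 with quantile scaling, 31 with median centring, 37 with every probe set tested, 3 with 6 arrays fitted, and 6 to 26 with 1 array left out. The block gave 1171 (470 lower, 701 higher), or 1211 with quantile scaling (614 lower, 597 higher), and 523, 851 and 206 without replicate number 1, 2 and 3. Calls in abf1 ts went from 2 to 10 with the block, and to 0, 71 and 0 without replicate number 1, 2 and 3. In the difference of effects they went from 0 to 426, and to 0, 266 and 1 without those numbers. With 3 arrays a group, and RIF2, SIR1 and SIR4 under the filter, intervals of about 0.5 or more on either side of a difference set the limit of what could be seen.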
